A study of Mus musculus with 9 samples.

Results

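Of 75936 open chromatin peaks of mouse D2A1-d breast carcinoma cells, 2213 (2.91%) were lower with both short hairpins against Med1 than with a non-targeting control hairpin (NTC). They were chosen on the measured values. A peak had a mean of at least 50 normalized counts over the 9 libraries, its log2 difference from NTC was -0.4 or lower with hairpin shMed1 #2 and with hairpin shMed1 #4, and all 6 hairpin values lay below all 3 NTC values. Of the 72471 peaks with that mean, 3.05% met the rule, and 2269 (3.13%) met its mirror image and are called gained peaks here. The chosen peaks were lowered rather than lost. Their median level was 142 normalized counts in NTC, 95.1 with #2 and 98.4 with #4, the median log2 difference over both hairpins was -0.54, and the lowest value in any library was 20.5. Since the rule used these differences, they are given as descriptions without a test. In bulk samples, fewer cells with an open site and less accessibility per cell cannot be told apart.

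ATAC-seq inserts sequencing adapters with a transposase where DNA is not wrapped in nucleosomes, so a high count at a peak marks accessible DNA such as a promoter or an enhancer. Mediator is a large complex that passes signals from DNA-bound transcription factors to RNA polymerase II. MED1 is the subunit of its middle part known for contacts with nuclear receptors, and Mediator is found at promoters and in high amounts at clusters of strong enhancers.

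The NTC cells carry the genotype label WT and both hairpin groups the label Med1 Knockdown, and all are labelled untreated. Each group has 3 libraries called biological replicates, without word on whether they came from separate cultures, so p-values measure the spread between these libraries. D2A1-d cells were transduced with the hairpins, and collected cells were tagmented for 1 h at 37 °C. Whether one clone or a pool of transduced cells was used, and how far MED1 protein fell, is not stated in the labels used here. The title of the series concerns MED4 and metastatic dormancy, the state in which disseminated tumour cells persist without growing. The reads in peaks ran from 34.8 to 53.7 M per library, and a chosen peak had a median of 148 to 157 reads in the NTC libraries, 83 to 115 in those of #2 and 79 to 95 in those of #4. Gene-end peaks of the mesenchymal genes Vim, Snai2 and Twist1 were strong (NTC means of 4576, 2339 and 1845), and that of Zeb1 was weak (242). Of the epithelial markers Krt18 and Krt14 had weak gene-end peaks (209 and 126), and Krt8, Epcam, Cdh1 and Krt5 had none. No gene-end peak lay at the blood markers Ptprc and Cd3e, the endothelial markers Pecam1 and Kdr or the neural marker Snap25, while Spi1, a myeloid transcription factor, had a gene-end peak of 797.

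The targeted gene did not stand out at its own locus. The gene-end peak of Med1 (chr11:98192989-98193490) had 2066, 2141 and 2134 normalized counts in NTC, 2152, 2049 and 1869 with #2, and 2013, 1887 and 2014 with #4, and is not among the lowered peaks. Hairpins act on the RNA, so this peak does not check the knockdown. The gene-end peak of Med4 (chr14:73509727-73510228) went from 691 ± 7.96 in NTC to 527 ± 38.0 with #2 and 545 ± 71.1 with #4 (SD, n = 3) and missed the rule with log2 differences of -0.39 and -0.35.

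The promoters of 5 genes with a lowered start peak are printed to show what these regions look like at a gene's start. Each window is a RefSeq promoter of GRCm38.p6, from 250 bases before to 50 after the annotated start, read 5′ to 3′ on the gene's strand. Capitals mark matches on either strand to the motifs GGGCGG (bound by Sp and KLF factors), CCAAT (bound by NF-Y), GAANNTTC (part of the heat shock element) and TGACG (bound by CREB and ATF factors). Prex1 encodes a guanine nucleotide exchange factor for the small GTPase Rac, Ier5 an immediate early regulator of the heat shock response, Top2a the topoisomerase of dividing cells, and Rpl24 and Rpl13 proteins of the large ribosomal subunit.
Prex1: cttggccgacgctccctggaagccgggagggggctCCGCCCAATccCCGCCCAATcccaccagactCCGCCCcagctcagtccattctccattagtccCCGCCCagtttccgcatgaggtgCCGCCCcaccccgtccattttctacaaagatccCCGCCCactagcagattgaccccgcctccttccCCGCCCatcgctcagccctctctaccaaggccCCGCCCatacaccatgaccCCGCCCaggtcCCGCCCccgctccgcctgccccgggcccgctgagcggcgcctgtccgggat
Ier5: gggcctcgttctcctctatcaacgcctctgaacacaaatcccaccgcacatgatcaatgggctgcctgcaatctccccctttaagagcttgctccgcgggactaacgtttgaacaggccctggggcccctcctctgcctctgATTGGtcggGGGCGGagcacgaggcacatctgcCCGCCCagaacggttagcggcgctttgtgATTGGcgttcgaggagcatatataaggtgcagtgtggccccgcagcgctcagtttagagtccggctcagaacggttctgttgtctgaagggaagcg
Top2a: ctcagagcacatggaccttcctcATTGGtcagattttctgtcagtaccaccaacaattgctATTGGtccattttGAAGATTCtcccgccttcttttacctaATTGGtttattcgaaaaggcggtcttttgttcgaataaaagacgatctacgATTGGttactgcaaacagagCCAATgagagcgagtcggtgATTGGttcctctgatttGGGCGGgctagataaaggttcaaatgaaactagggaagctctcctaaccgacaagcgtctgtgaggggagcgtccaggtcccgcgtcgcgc
Rpl24: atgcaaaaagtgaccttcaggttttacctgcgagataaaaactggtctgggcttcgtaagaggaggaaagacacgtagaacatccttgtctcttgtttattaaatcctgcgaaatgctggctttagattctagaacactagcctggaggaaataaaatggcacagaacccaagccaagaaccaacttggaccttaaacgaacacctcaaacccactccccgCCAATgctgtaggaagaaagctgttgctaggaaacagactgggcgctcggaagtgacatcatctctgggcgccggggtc
Rpl13: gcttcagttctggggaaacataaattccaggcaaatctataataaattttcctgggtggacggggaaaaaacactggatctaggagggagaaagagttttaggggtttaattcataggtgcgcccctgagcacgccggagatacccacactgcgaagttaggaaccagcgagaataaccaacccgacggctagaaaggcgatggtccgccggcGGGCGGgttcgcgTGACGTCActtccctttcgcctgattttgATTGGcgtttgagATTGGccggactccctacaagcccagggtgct
The windows lie at chr2:166713783-166714082 (minus strand), chr1:155099587-155099886 (minus), chr11:99024140-99024439 (minus), chr16:55966025-55966324 (plus) and chr8:123102100-123102399 (plus), and 271, 186, 300, 144 and 263 of their bases lie in the lowered peak. The Prex1 window holds 10 GGGCGG matches and 2 CCAAT matches at a GC content of 69.3%. The Top2a window holds 6 CCAAT matches at 47.7%, and the Rpl24 window a single CCAAT match. The Rpl13 window holds 2 CCAAT matches, and its 2 TGACG matches overlap in an 8-base stretch that reads TGACG on both strands.

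At an annotated start, 202 of the 2125 lowered peaks outside chromosome 18 lay within 250 bases of it (9.51%), against 11.2% of all peaks with a mean of at least 50 and 1.72% of the gained peaks. Chromosome 18 is left out because the promoter table used here has no window on it. The highest of all lowered peaks was at Tuba1b, which encodes an alpha-tubulin (chr15:98933906-98934407). It had 3321, 3511 and 3728 normalized counts in NTC, 2539, 2269 and 2329 with #2, and 2589, 2559 and 2546 with #4. All 6 hairpin libraries lay below NTC, those of #4 slightly above those of #2, with log2 differences of -0.57 and -0.45. The Ier5 peak (chr1:155099271-155099772) had 2700, 2840 and 3051 in NTC, 1891, 1718 and 1801 with #2, and 2135, 2094 and 2040 with #4. Here too #4 lay between #2 and NTC. Other strong lowered peaks were those of Fubp1, which encodes a single-strand DNA-binding protein (chr3:152210060-152210561, from 2420 ± 149 in NTC to 1817 ± 189 with #2 and 1751 ± 50.2 with #4), of Jpt1 (chr11:115514183-115514684, from 2319 ± 157 to 1527 ± 127 and 1664 ± 81.2) and of Csnk1g2, a casein kinase (chr10:80622132-80622633, from 2318 ± 192 to 1557 ± 100.1 and 1652 ± 49.7; SD, n = 3).

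The Prex1 peak (chr2:166713812-166714313) had the largest difference at a start. It had 423, 499.6 and 519 in NTC, 262, 233 and 246 with #2, and 241, 259 and 307 with #4, and the log2 differences were -0.95 and -0.84. Of the 17 peaks of Prex1 outside the rule, 6 were below 0 and their median log2 difference was 0.14, and most of the gene's peaks were thus not lower. The start of Top2a (chr11:99024097-99024598) had 1252, 1381 and 1378 in NTC, 990.1, 865 and 829 with #2, and 1017, 918 and 946 with #4. A second, weak peak inside Top2a met the rule as well, while the other 2 peaks of the gene had log2 differences of -0.10 and 0.03. Epha2, an ephrin receptor kinase, had 1497, 1474 and 1668 at its start in NTC (chr4:141301044-141301545), 994, 834 and 856 with #2, and 1062, 905 and 1171 with #4. Epha2, Uba3 and Rngtt were named after their values were seen. Uba3 encodes the catalytic subunit of the enzyme that activates NEDD8 and Rngtt the enzyme that caps messenger RNA. Their start peaks had log2 differences of -0.76 and -0.59, and of -0.85 and -0.77.

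**Figure D1:**
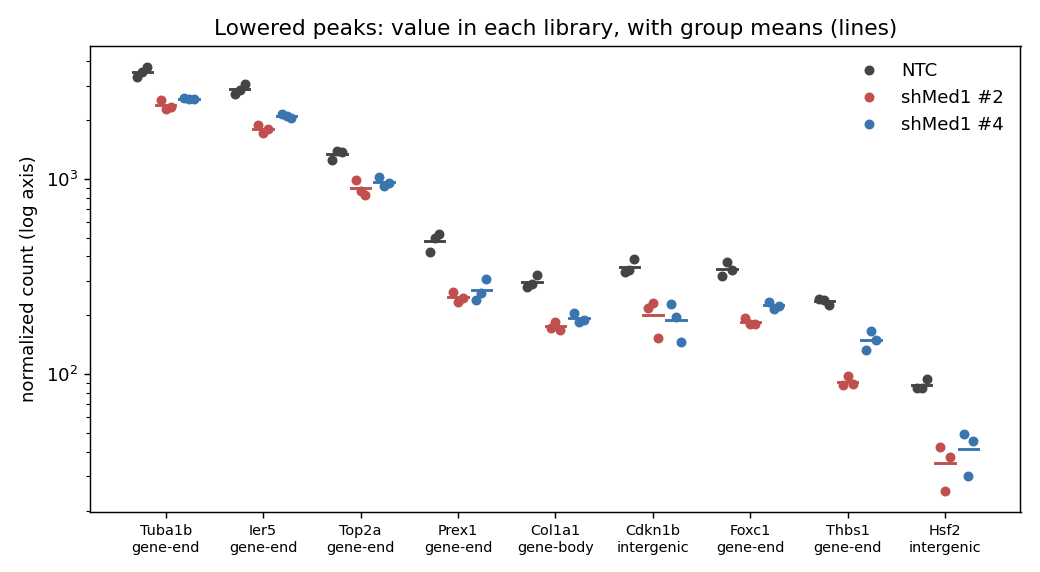
Normalized count (log axis) in each of the 9 libraries at 9 lowered peaks, named by gene and place, with a line at each group mean (n = 3). In every peak the 3 NTC points lie above all 6 hairpin points, as the rule requires, from the strong Tuba1b start (3321 to 3728 in NTC) to the weak peak near Hsf2 (84.8 to 94.9).

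Of the 18 gene lists looked at, ribosomal protein genes held the most lowered peaks. Of the 181 peaks assigned to genes of the cytosolic ribosome, 23 were lowered (12.7%), in 21 genes, against 3.05% of all peaks with the same mean. At their annotated starts 14 of 43 peaks were lowered (32.6%), against 2.57% of all start peaks, and 39 of the 43 were below 0, with a median log2 difference of -0.39 against -0.07 over all 7846 start peaks. This group was known to be lower before it was listed here, so these counts are no independent support of that. The start of Rpl24 (chr16:55966181-55966682) had 996, 1164 and 1167 in NTC, 818, 627 and 536 with #2, and 745, 576 and 732 with #4. The libraries of #2 spread widely there, with replicate 1 highest, yet stayed below NTC. Rps7, a small-subunit protein (chr12:28635605-28636106), went from 1015 ± 85.4 to 619 ± 126 and 633 ± 43.9, and Rps4x, the X-linked form of a small-subunit protein (chrX:102189035-102189536), from 738 ± 69.9 to 461 ± 77.1 and 439.6 ± 67.5 (SD, n = 3). Rpl28 (chr7:4792619-4793120) and Rpl13 (chr8:123102137-123102638) were the strongest of the group. Rpl28 had 1743, 1726 and 1878 in NTC, 1326, 1197 and 1136 with #2, and 1308, 1325 and 1364 with #4, and Rpl13 had log2 differences of -0.54 and -0.41. The ribosomal peaks beyond Rpl28 and Rpl13 were named after their values were seen. Of the 23, 19 were gene-end peaks, and the log2 differences over both hairpins ran from -0.73 at Rpl24 to -0.43 at Rpl36. Processed copies of ribosomal protein genes are common in the mouse genome, and how reads that match several places were treated is not given in the sources used.

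**Figure D2:**
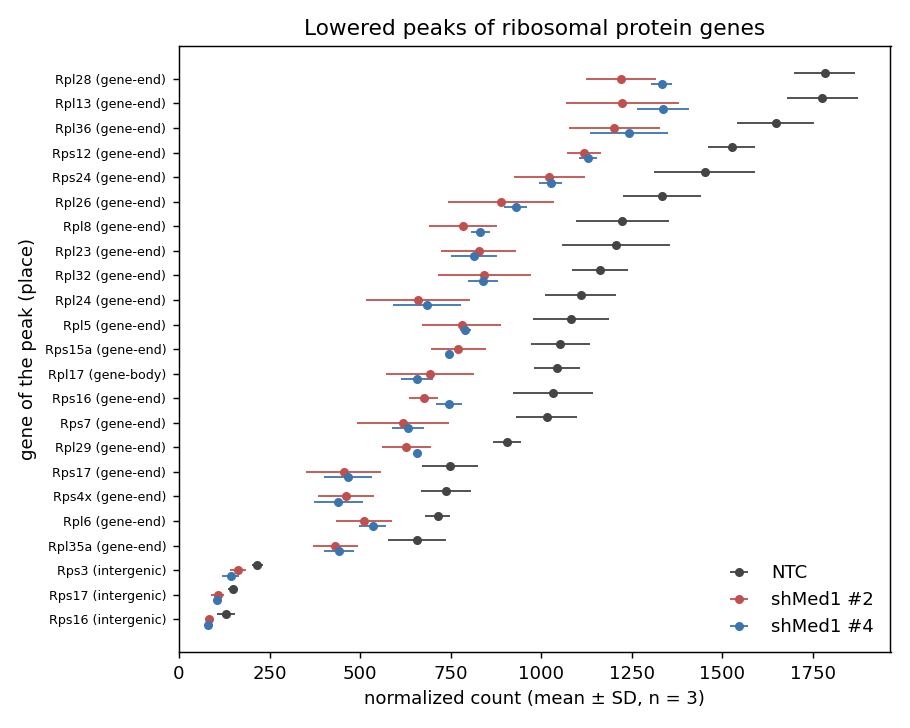
Normalized count (mean ± SD, n = 3) of the 23 lowered peaks assigned to ribosomal protein genes, in NTC and with each hairpin, ordered by the NTC mean. The hairpin means lie close to each other and below NTC at every peak, from 1783 down to 1220 and 1332 at Rpl28 and from 129 to 82.9 and 81.5 at the weak peak near Rps16.

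Most lowered peaks were weak and lay away from starts. Relative to the nearest protein-coding gene of the RefSeq table, 344 (15.5%) were centred within 1 kb of a gene end, 969 (43.8%) inside a gene body, 660 (29.8%) within 50 kb of a gene and 240 (10.8%) farther away. Over all peaks with a mean of at least 50 the shares were 16.5%, 45.7%, 27.1% and 10.7%, and over the gained peaks 4.05%, 57.9%, 26.8% and 11.3%. The lowered peaks were thus placed much like all peaks, with fewer than 3 percentage points between any of these shares, whereas gained peaks were seldom at gene ends. The lowered gene-end peaks had a median NTC level of 602, against 128 to 144 in the other places. Of the 7517 gene-end peaks near a start, 208 were lowered (2.77%), and of the 1912 at the other end of a gene alone, 48 (2.51%). Another 144, of which 1 was lowered, lay at the other end but near the start of another gene. Gene-end peaks of genes without a promoter window, among them those on chromosome 18, are not in this split, so it does not cover all 344. Shares of lowered peaks per chromosome ran from 2.26% on chromosome 9 to 3.89% on chromosome 14.

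The share of lowered peaks fell off with strength, and later at starts than elsewhere. Among peaks with a mean of 50 to 100, 5.22% were lowered, and this share declined to 4.80% at 100 to 200, 2.12% at 200 to 400, 1.52% at 400 to 800, 1.05% at 800 to 1600 and 0.169% above. At starts it was 4.11%, 6.43%, 5.65%, 6.30%, 2.52% and 0.352% in the same classes, and at all other peaks 5.23%, 4.76%, 1.98%, 0.911%, 0.480% and 0.0438%. Chromosome 18 (2475 peaks, 88 lowered), which has no promoter window, is counted among the other peaks here. In each class from 100 upwards the share at starts was the higher. Weak peaks rest on fewer reads, and their log2 differences spread more (SD 0.31 at 50 to 100, 0.21 above 1600), which lets more of them pass a fixed size of difference; its part in the decline was not tested.

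**Figure D3:**
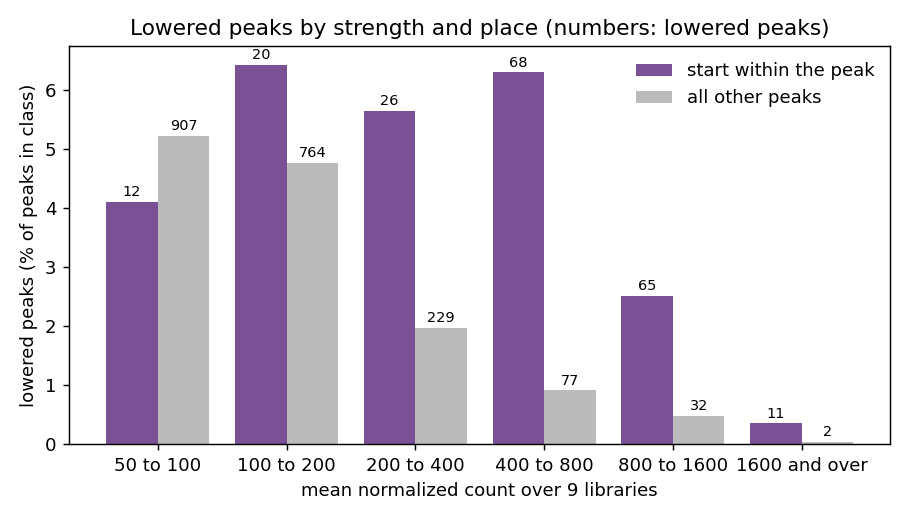
Share of peaks that were lowered with both hairpins (bars, % of the peaks in each class) by the mean normalized count, for peaks with an annotated start within them and for all other peaks, with the number of lowered peaks above each bar. All peaks of chromosome 18, which has no promoter window, are among the other peaks. At means of 400 to 800 the shares were 6.30% at starts and 0.911% elsewhere.

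The promoter sequence of the 202 lowered starts was described against the 7846 start peaks, and shares are given with exact 95% binomial intervals that cover counting only. The median GC content of the windows was 57.7% at lowered starts and 61.3% at all, and 58.3% and 60.7% where both sets were held to a mean of 200 to 1600. The AP-1 motif TGANTCA, bound by Fos and Jun proteins, was in 3.47% of the lowered windows (1.40 to 7.01), in 6.92% of all start peaks (6.37 to 7.50) and in 7.81% of all promoters of the table. The TEAD motif GGAATG was in 7.92% (4.60 to 12.5), 12.4% and 14.7%. The heat shock motif GAANNTTC was in 8.91% (5.37 to 13.7), 5.46% and 7.86%, and the FOX motif GTAAACA in 4.46% (2.06 to 8.29), 2.60% and 3.65%. The remaining shares at lowered starts and all start peaks were 61.4% and 65.8% for GGGCGG, 34.7% and 39.9% for CCAAT, 38.6% and 33.1% for TGACG, 18.8% and 19.5% for the ETS motif CCGGAAG, 13.4% and 10.7% for the E-box CACGTG, 9.90% and 12.9% for the RUNX motif TGTGGT, 4.46% and 3.87% for the CTCF motif, and 0% and 0.0255% for the NFI motif. Lowered starts were also weaker (median means of 637 and 1353). At means of 200 to 1600 in both sets, the shares were 63.5% and 63.7% for GGGCGG and 32.1% and 33.7% for CCAAT. For TGACG they were 42.8% (34.96 to 50.8) and 31.3% (29.9 to 32.7). The order of both sets changed for the ETS motif alone, to 22.01% (15.8 to 29.3) and 19.2%. These are matches of letters, and GC content, which differed between the sets, alters how often each word occurs. Starts on both strands lay in 8.42% of the lowered start peaks and in 11.7% of all.

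The largest differences were at weaker peaks. A peak 22874 bases from the start of Hsf2, which encodes a heat shock transcription factor (chr10:57463261-57463762), had 85.1, 84.8 and 94.9 in NTC, 42.2, 25.3 and 37.8 with #2, and 49.2, 30.03 and 45.6 with #4, with log2 differences of -1.34 and -1.10. The other 3 peaks of Hsf2 had differences of 0.09 to 0.46, above 0. A peak inside Atxn1, an RNA- and DNA-binding protein with a polyglutamine tract (chr13:45623615-45624116), went from 137 ± 17.3 in NTC to 60.6 ± 20.4 with #2 and 62.7 ± 12.1 with #4 (SD, n = 3), while the median over its other 36 peaks was -0.04. Peaks near Ankrd12 (chr17:65961492-65961993), Gm46900 (chr5:5754943-5755444) and Crnn (chr3:93114459-93114960) and inside Cert1, a ceramide transfer protein (chr13:96550000-96550501), and Cald1, the actin-binding protein caldesmon (chr6:34647408-34647909), had log2 differences over both hairpins of -1.01 to -0.97. The Ankrd12 peak was the strongest of them, with 327, 454 and 453 in NTC, 223, 172 and 163 with #2, and 253, 205 and 224 with #4. Apart from Thbs1 and Prex1, the gene-end peaks with the largest differences were those of Shank1, a scaffold of synapses (chr7:44359892-44360393, -0.89), Krt28, a hair follicle keratin (chr11:99364351-99364852, -0.82), and Sv2a, a synaptic vesicle protein (chr3:96195516-96196017, -0.82). The 3 peaks with the largest differences more than 50 kb from any gene had differences of -1.16 (chr14:98708185-98708686), -1.12 (chr1:70946605-70947106) and -1.10 (chr18:8960092-8960593).

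Over all lowered peaks the log2 difference had a median of -0.56 with #2, or 67.7% of the NTC level, and of -0.51 with #4, or 70.3%. Both differences were -0.6 or lower in 322 peaks, -0.8 or lower in 31 and -1 or lower in 3. The difference was larger with #2 in 1421 peaks (64.2%), where #2 was the lower hairpin in 51.8% of all peaks with the same mean. The medians of the 3 NTC libraries were 136, 145 and 149, those of #2 97.5, 95.6 and 94.4, and those of #4 97.3, 98.8 and 101. NTC replicate 1 was the lowest of its group in 56.6% of the lowered peaks, against 34.4% of all. Just inside the limit of -0.4 were a peak near Cblc (chr7:19800675-19801176, 234 ± 21.2 in NTC, 178 ± 17.4 with #2 and 162 ± 27.8 with #4) and a gene-end peak of Stag2 (chrX:42149725-42150226, 189 ± 27.5, 137 ± 14.1 and 142 ± 8.30). Just outside were a peak inside Erf (chr7:25249219-25249720, 955 ± 24.03, 695 ± 27.2 and 724 ± 32.5) and a gene-end peak of Qrsl1 (chr10:43901503-43902004, 1037 ± 62.1, 745 ± 115 and 786 ± 39.0; SD, n = 3).

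**Figure D4:**
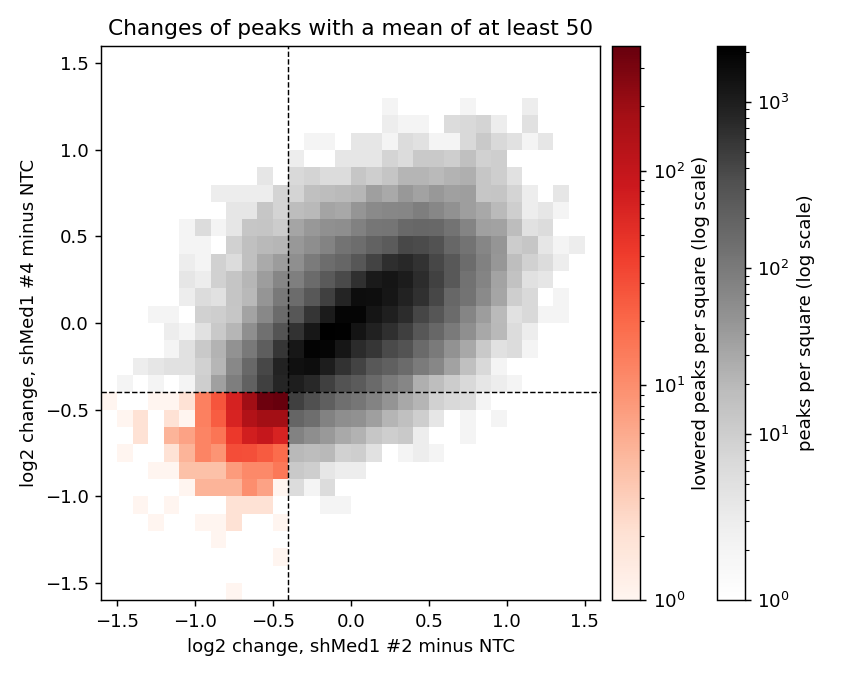
Log2 difference from NTC with shMed1 #2 (horizontal) and shMed1 #4 (vertical) of the peaks with a mean of at least 50, as counts per square of 0.1 by 0.1 (grey, log scale), with the squares that hold lowered peaks in red. The dashed lines mark -0.4. The 2213 lowered peaks fill the lower left corner, with medians of -0.56 and -0.51, at the edge of a cloud centred near 0.

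In limma's test across all peaks, 2063 of the lowered peaks were called lower with #2, where 19.5% of all peaks tested were, 1886 with #4 (12.1%) and 1802 with both (7.78%). The rule used the same contrasts, so nothing is read from these counts. All 6 hairpin values lay below all 3 NTC values in 9185 of the peaks with a mean of at least 50 (12.7%). Of the 2728 peaks with both differences at -0.4 or lower, 515 were left out because the groups overlapped. The normalized totals were 41.2 to 41.5 M in NTC and 43.1 to 44.2 M with the hairpins, and scaled to equal totals, 4303 peaks met the rule. Without NTC replicate 1 the count was 3424, of which 2022 were among the 2213.

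As a description, each library was left out in turn, the rule was applied to the other 8, and the library left out was compared at the peaks so chosen. A hairpin library left out lay below all 3 NTC libraries in 93.8% to 97.3% of them for #2 and in 87.9% to 92.5% for #4, against 38.3% to 39.5% and 35.6% to 37.0% of all peaks with the same mean. An NTC library left out lay above all 6 hairpin libraries in 77.3% (replicate 1), 84.3% (replicate 2) and 85.9% (replicate 3), against 21.2%, 24.5% and 26.7%. Its median log2 difference from the hairpins was 0.38, 0.48 and 0.52, where the NTC libraries that took part in the choice gave 0.55 to 0.56. Only the library left out took no part in the choice. The libraries it was set against did, and the rule picked peaks where these were high (NTC) or low (hairpins), which favours high shares, so the shares are not on an equal footing with those over all peaks.

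The contrast of #4 against #2 took no part in the rule, though the rule narrows it, because both hairpins had to be below NTC. By limma across 75930 peaks with Benjamini-Hochberg adjustment, 39 lowered peaks were higher with #4 and 7 were lower (1.76% and 0.316%), where 8.48% and 13% of all peaks tested were called. The median log2 difference was 0.04, and 90% of the lowered peaks lay between -0.21 and 0.31, with a median SE of 0.16. A peak that was not called is not shown to be alike with both hairpins. The number called higher was 92 without shMed1 #2 replicate 1 and 20 without shMed1 #2 replicate 2, and the number called lower ran from 4 without shMed1 #2 replicate 1 to 13 without shMed1 #4 replicate 3. At gene ends 14 of 344 were higher with #4 and 0 lower (4.07% and 0%), where 11.7% and 3.74% of all gene-end peaks with the same mean were. A peak near Nid2, a basement membrane nidogen (chr14:19738366-19738867), had 93.1, 86.6 and 116 in NTC, 36.0, 47.2 and 26.3 with #2, and 65.6, 76.3 and 56.8 with #4. The groups did not overlap there, #4 lying between #2 and NTC (#4 against #2, log2 0.87 ± 0.22, limma adjusted p = 0.00307), and the start of Ier5 by less (0.21 ± 0.05, limma adjusted p = 0.00113). The opposite order was seen at a peak far from any gene (chr11:90814418-90814919), which had 155, 124 and 117 in NTC, 112, 96.7 and 88.7 with #2, and 52.2, 47.5 and 52.3 with #4 (-0.95 ± 0.18, limma adjusted p = 5.17e-05).

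Most lowered peaks had no other lowered peak within 50 kb, and some lay in close groups. The median distance to the next one on a chromosome was 442 kb, 48 (2.17%) had another within 2 kb and 491 (22.2%) within 50 kb. Within 50 kb on each side, lowered peaks had a median of 6 other peaks, and all peaks with the same mean had 7. Whether the close groups exceed what this peak density gives was not tested. The lowered peaks were assigned to 1781 of the 15591 genes with a peak of that mean, and 1610 of them had a single one. At Thbs1, which encodes the matrix glycoprotein thrombospondin 1, all 3 peaks with a sufficient mean within 6.40 kb were lowered. The peak at a gene end (chr2:118127325-118127826) had 244, 241 and 226 in NTC, 87.9, 97.9 and 88.7 with #2, and 132, 166 and 149 with #4. The peak inside the gene (chr2:118125212-118125713) had 323, 286 and 327, then 164, 149 and 185, then 206, 209 and 243. Both showed the same order of NTC, #4 and #2, and #4 exceeded #2 by 0.70 ± 0.13 (limma adjusted p = 9.39e-05) and 0.40 ± 0.12 (limma adjusted p = 0.00808). The latter lost its call without shMed1 #2 replicate 2 (adjusted p = 0.0672 by limma) and without shMed1 #4 replicate 3 (0.0677). The nearby peak inside Fsip1 (chr2:118131616-118132117) went from 128 ± 10.8 to 83.7 ± 19.3 and 97.5 ± 23.0 (SD, n = 3). The other 4 peaks of Thbs1 had log2 differences of -0.30 to 0.25.

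Foxc1 encodes a forkhead factor of mesenchyme, and 4 of its 6 peaks were lowered, 3 of them next to each other within 3.64 kb. The one beyond the end of the gene (chr13:31810654-31811155) had 319.6, 374 and 340.2 in NTC, 194, 179.7 and 181 with #2, and 234, 216 and 224 with #4. The one inside the gene had 519 ± 23.2, 386 ± 32.2 and 391 ± 38.5, and the other 2 peaks of the gene that missed the rule were below 0 as well (-0.43 and -0.01). Fermt1, which encodes the integrin activator kindlin-1, had 4 of 5 peaks lowered, 1 inside the gene and the rest 24920 to 47379 bases before its start. The strongest (chr2:132970706-132971207) had 460.2, 456 and 473 in NTC, 363, 304 and 341 with #2, and 289, 340.3 and 341 with #4. The rule chose 4 of 11 peaks at Cnot1, the scaffold of the CCR4-NOT deadenylase (-0.91 to -0.46), 4 of 12 at Trim27, a ubiquitin ligase (-0.93 to -0.48), and 3 of 4 at Kng1, a kininogen (-0.77 to -0.47). At Tiparp, an ADP-ribosyltransferase induced by the aryl hydrocarbon receptor, 3 of the 4 peaks within 6.68 kb were lowered. They were weak, with NTC means of 76.8, 85.0 and 106, and differed by -0.82, -0.87 and -0.91. Tiparp was named after its values were seen.

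Peaks that missed the rule tended to be lower too when they were near a lowered peak. Their median log2 difference over both hairpins was -0.17 within 2 kb (466 peaks, 74.9% below 0), -0.08 at 2 to 10 kb (2066 peaks), -0.02 at 10 to 50 kb, 0.01 at 50 to 200 kb and 0.02 beyond, and 0.00 over all 70258 peaks outside the rule. Within 2 kb, 2 of the 466 were gained peaks (0.429%), against 3.23% of all 70258. These neighbours share the 9 libraries with the lowered peaks, and the values are a description. The mirrored pattern, larger in size, was seen near gained peaks. Peaks that were not gained had a median of 0.24 within 2 kb of one (535 peaks, 16.8% below 0) and 0.13 at 2 to 10 kb. The other peaks of 1635 genes with a lowered peak had a median of -0.04 over the genes' medians, and genes without any had -0.03.

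**Figure D5:**
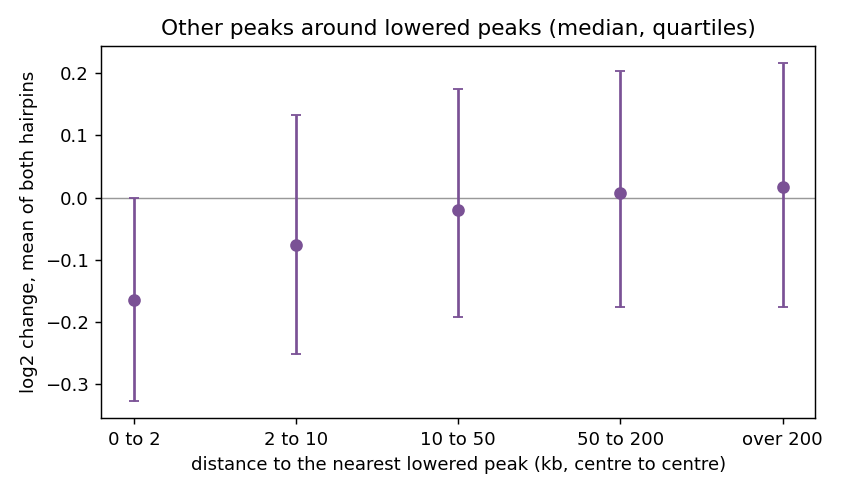
Log2 difference from NTC, as the mean of both hairpins, of peaks outside the rule by their distance to the nearest lowered peak (points, medians; bars, quartiles). The median moves from -0.17 within 2 kb to 0.02 beyond 200 kb.

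The gene lists held 114 of the lowered peaks, and peaks were assigned by position only, which does not show that a peak regulates the gene named. Against 3.05% of all peaks, 6.29% of the peaks of mesenchymal regulators (10 of 159) and 5.95% of those of dormancy-linked genes (10 of 168) were lowered, while the medians over all peaks of these lists were above 0 (0.05 and 0.04). In each list the lowered peaks came from 6 genes. Foxc1 (4 peaks) and Tcf4 had more than a single lowered peak among the mesenchymal regulators, and Rarb, Cdkn1b and Thbs1 among the dormancy-linked genes. A peak near Foxc2, a forkhead factor linked to epithelial-mesenchymal transition (chr8:121113212-121113713), had 552, 610.2 and 621 in NTC, 449, 364 and 383 with #2, and 416, 453 and 415 with #4. A peak near Cdkn1b, which encodes the CDK inhibitor p27 and is on the dormancy and the cell cycle lists (chr6:134927256-134927757), had 333, 342 and 391 in NTC, 219, 231 and 154 with #2, and 228, 195 and 146 with #4. In both hairpin groups replicate 3 was the lowest. The peak near Nr2f1, an orphan nuclear receptor linked to dormancy (chr13:78200408-78200909), was close to the limit (-0.40 and -0.41).

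Matrix and adhesion genes had lowered peaks at shares near that of all peaks or under it. Of 391 extracellular matrix peaks 12 were lowered (3.07%). They included a peak inside Col1a1, a chain of collagen I (chr11:94939196-94939697), with 280.2, 288 and 321 in NTC, 173, 185 and 169 with #2, and 206, 184 and 190.3 with #4. Of 458 peaks of integrin and focal adhesion genes 10 were lowered (2.18%), among them a peak near Itga5, the fibronectin receptor chain (chr15:103342389-103342890, 404 ± 23.6 to 278 ± 43.6 and 302 ± 22.045; SD, n = 3). Of 314 YAP and TEAD target peaks it was 6 (1.91%), led by peaks near Tead1 (chr7:112647398-112647899, -0.54) and Ccn1, a matricellular protein (chr3:145666257-145666758, -0.60).

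Among signalling and stress lists, 3 of the 182 peaks on the AP-1 list, which holds immediate early genes, were lowered (1.65%), the strongest at Ier5 and inside the phosphatase gene Dusp4 (chr8:34808907-34809408, -0.47). For TGF-beta and BMP signalling it was 4 of 228 (1.75%), near the receptor gene Bmpr2 (chr1:59883664-59884165, -0.43) and inside Smad4, the common SMAD (chr18:73674126-73674627, -0.46), among others. For NF-kappaB and inflammatory genes it was 6 of 139 (4.32%), the strongest near the chemokine gene Cxcl5 (chr5:90753913-90754414, -0.46) and inside Csf1, the macrophage growth factor (chr3:107754610-107755111, -0.59). The p53 target list had 1 of 74 (1.351%), at an end of Bax, a promoter of apoptosis (chr7:45466341-45466842, -0.46). Stress response and chaperone genes had 4 of 114 (3.51%). The strongest of these was near Hspa1b, which encodes an inducible HSP70 (chr17:34952118-34952619), with 2029, 2143 and 2162 in NTC, 1490, 1434 and 1499 with #2, and 1566, 1506 and 1478 with #4, and the next at an end of Atf6, a sensor of unfolded proteins (chr1:170867497-170867998, -0.54). Cell cycle genes had 5 of 172 (2.91%) and Mediator genes 2 of 137 (1.46%). The latter were a gene-end peak of Med25 (chr7:44892454-44892955), with 808, 946 and 1047 in NTC, 666, 585 and 521 with #2, and 684, 638 and 569 with #4, and a peak near Med13l (chr5:118781553-118782054, -0.43).

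The lists for cell identity were small. Epithelial and mammary genes had 4 of 110 peaks lowered (3.64%), the strongest near Krt8, a keratin of simple epithelia (chr15:102014824-102015325, 645 ± 48.9 in NTC, 444 ± 40.5 with #2 and 470.2 ± 7.82 with #4; SD, n = 3), and inside Tjp1, the tight junction protein ZO-1 (chr7:65317400-65317901, -0.70). Blood and immune markers had 2 of 31 (6.45%), near S100a8 (chr3:90664151-90664652, -0.43) and inside Cd4 (chr6:124878109-124878610, -0.50), and endothelial and fat markers 0 of 81. Neural and synaptic genes had 8 of 198 (4.04%), or 3 when every peak was assigned to the nearest gene end. The strongest were inside Nrg1, a ligand of ERBB receptors (chr8:31907604-31908105), with 199, 206 and 205 in NTC, 127, 132 and 92.0 with #2, and 87.1, 125 and 96.8 with #4, and inside Lsamp, a neural adhesion protein (chr16:42164912-42165413, -0.57).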

How the data were processed

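ATAC-seq was measured in 9 libraries, 3 per group. Per the submitters' processing notes, the authors used Trim Galore, BWA, MACS2 and featureCounts (Subread) on mm10 (GRCm38). Their versions, any filters and the handling of the transposase offset are not given in these sources. Each deposited value is the signal of a 501-base peak, which the authors named DESeq2-normalized counts. Divided by a step found per library, 100% of them came within 0.01 of a whole read, which gave size factors of 0.799 to 1.22 and the reads quoted. The step failed a stricter check, so the values were tested by limma in place of a count model.

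Log2(value + 1) of 75930 peaks with a mean of at least 10 (6 removed) was fitted with limma 3.58.1 (trend, 3 group means, R 4.3.3), with two-sided p-values, Benjamini-Hochberg adjustment and a threshold of 0.05. The fit was tested on simulated data. Log2 differences are on the log2(value + 1) scale, and errors after ± are SDs of group means or limma's SEs. Other values were computed with Python 3.11.15, pandas 2.3.3 and numpy 2.4.6, and drawn with matplotlib 3.10.9.

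A peak's place was set by the distance of its centre to ends of protein-coding RefSeq genes (GRCm38.p6, a table without strand): within 1 kb of an end, otherwise inside a gene, otherwise within 50 kb. Starts come from 32817 distinct RefSeq promoter windows. Coordinates are as deposited, and no source says whether they count from 0 or 1. No genome was used, so peaks away from starts have no sequence here.

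The members and the 18 gene lists (587 of 588 entries matched) were chosen with earlier results of these data known. Named peaks are, by rule, the 10 assigned, 5 gene-end and 3 unassigned members with the largest difference, the 5 strongest, the members of the 5 genes with the most, up to 2 each way that differ most between hairpins, the 2 strongest of each list, 2 on each side of the limit, and Med1 and Med4. A named peak and a gene list are not reported here. Alternatives were other scalings, pseudocounts, minimum means, limits, distances, a replicate block and leaving out each library.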

Additional observations from a re-analysis of the deposited data

Results flagged for a closer look

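These results were flagged because the effects of the hairpins differed in limma's test of #4 against #2, adjusted over all peaks. Of the lowered peaks, 39 were higher with #4 and 7 were lower (1.76% and 0.316%). Over all peaks tested the shares were larger, at 8.48% and 13.0%.

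Among the named peaks, #4 exceeded #2 on the log2 scale by 0.87 near Nid2 (chr14:19738366-19738867), by 0.70 and 0.40 at the gene-end and the gene-body peak of Thbs1, by 0.48 at the gene end of Shank1 (limma adjusted p = 0.0385) and by 0.21 at the start of Ier5. At chr1:70946605-70947106 the difference was 0.71 (limma adjusted p = 0.0181), with 38.7, 34.6 and 43.5 normalized counts in #2 against 79.9, 40.0 and 81.2 in #4, so that replicate 2 of #4 lay with #2. In the other direction, the difference was -0.95 at chr11:90814418-90814919 and -0.83 at chr14:98708185-98708686 (limma adjusted p = 0.0145), where #4 had 20.5, 37.5 and 24.5. Leaving out a library ended the call at Shank1 without shMed1 #2 replicate 1, shMed1 #2 replicate 3 or shMed1 #4 replicate 2 (limma adjusted p = 0.128, 0.102 and 0.245). It did so at the chromosome 14 peak without shMed1 #2 replicate 1 or shMed1 #4 replicate 1 (0.0927 and 0.0785), and at the chromosome 1 peak without shMed1 #2 replicate 2, shMed1 #4 replicate 1 or shMed1 #4 replicate 3 (0.0707, 0.122 and 0.138).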

How the results depend on the processing

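The lowered peaks are defined by cut-offs, and their number follows them. It was 4303 with equal totals, 1294 with a minimum mean of 100, 4359 with a limit of -0.3 and 894 with -0.5, and 2092 to 3424 when a library was left out. With quantile scaling it was 1815, of which 1507 were among the 2213. With equal totals the median over all peaks was -0.10 (#2) and -0.08 (#4).

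In the #4 against #2 contrast the counts higher and lower were 60 and 11 with quantile scaling. They were 24 and 4 with only the 2 hairpin groups in the fit. Over all peaks tested, 16788 and 15056 were called either way in these settings. Without a library the counts of lowered peaks ran from 20 to 92 and from 4 to 13. Same-numbered libraries of different groups were no more alike than others. Correlations of their deviations from the group means were -0.0843 to 0.0335, against -0.0364 to 0.0764 for libraries with different numbers. The deviations also hold the noise of single peaks, so this does not settle whether the samples were paired. With the replicate block the counts were 31 and 7, where 15393 of all peaks tested were called either way. The Shank1 call was lost with quantile scaling (0.44, limma adjusted p = 0.0551) and with the pair of hairpin groups alone (0.0783), and those at chr14:98708185-98708686 and chr1:70946605-70947106 with the pair alone (0.0537 and 0.0526). The cause was not tested.

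Gene-end shares were 12.5%, 21.0% and 23.1% at distances of 500 and 2000 bases and a minimum mean of 100. The last 2 settings gave gene-body shares of 40.7% and 37.5%, a distance of 2000 bases an intergenic share of 27.5%, and the minimum of 100 an unassigned share of 9.12%. Shares of all peaks under these place settings were not computed. Starts within 500 bases, an alternative chosen after seeing the data, gave 11.2% of the lowered peaks and 13.1% of all peaks with a mean of at least 50. The median of other peaks within 10 kb, -0.09, was -0.17 within 2 kb, -0.034 within 50 kb, -0.17 with equal totals and -0.10 with quantile scaling. The named #4 against #2 differences and the median of other peaks near a lowered peak kept their sign in all settings run. The motif shares did not all keep their order. In the central part of the promoter windows alone, the E-box share was 7.43% at lowered starts and 7.8% at all start peaks. In the whole windows the lowered starts had the higher share.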
